A study of Mus musculus with 36 samples.

Results

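The late interval of B cell to macrophage transdifferentiation (BMT) by wild-type C/EBPα, from 18 to 120 hr post induction (hpi), is described here in mouse cells. It rests on 4 of the 36 RNA-seq libraries of the study, chosen by construct and time alone, with 2 libraries at 18 hpi and 2 at 120 hpi. The cells were B cells from the bone marrow of C57BL/6J mice, infected with a retrovirus carrying C/EBPα fused to the estrogen receptor (ER) together with human CD4, and hCD4-positive cells were plated on inactivated mouse embryonic fibroblasts. Estradiol (E2) sends the fusion protein into the nucleus, and according to the study's methods the medium held the cytokines IL-7, IL-3, FLT-3, CSF-1 and SCF, of which IL-7 was left out when it was renewed. Both groups carried the same construct and differed in time and, with it, in the renewal of the medium. The labels call the cells B-cells at 18 hpi and Macrophages at 120 hpi. Cells with a mutant of arginine 35, R35A or R35K, were sampled at the same times and serve as comparisons. The published methods describe removal of feeders by adherence to dishes for the phagocytosis assay, but do not state it in the RNA-seq part. How complete any removal before RNA extraction was is not given there. The age and number of the mice were not given in the sources used here, nor was it said whether the 2 libraries of a group came from separate mice or cultures, so p-values measure only the spread between these libraries.

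C/EBPα is a leucine zipper transcription factor of granulocyte and macrophage precursors. Together with PU.1, encoded by Spi1, it can switch off the B cell programme of Pax5 and Ebf1 and install that of macrophages. Macrophages engulf particles through Fc, scavenger and lectin receptors, digest them in acid lysosomes, kill with an NADPH oxidase, sense microbes through Toll-like receptors and handle large amounts of lipid and iron.

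Levels are given in CPM, the usual unit of counts divided by library size, with libraries scaled by TMM, which assumes that most genes do not change, and fold changes are on the log2 scale. The 4 libraries held between 13198689 and 16546385 counts on genes. A gene was called when it changed at least 1.5-fold with an adjusted p of at most 0.05 by edgeR's quasi-likelihood test. CPM is not scaled by gene length, so levels are compared between libraries and not between genes. The label of macrophages at 120 hpi matched the markers. The 11 defining macrophage markers summed to 1144 and 1135 CPM at 18 hpi and to 22616 and 22249 CPM at 120 hpi, and all 11 rose. The 8 B cell markers summed to 336 and 340.0 CPM at 18 hpi, so the cells labelled as B cells were already low in them, and to 129 and 124 CPM at 120 hpi. T and NK cell and erythroid markers stood below 1 CPM in sum in each of the 4 libraries.

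Markers of fibroblasts, the cell type of the feeders, moved strongly over the same interval and stand beside every result below. The 9 defining fibroblast markers summed to 5184 and 5102 CPM at 18 hpi and to 179 and 151 CPM at 120 hpi, and all 9 fell. A longer list of 27 fibroblast genes summed to 10011 and 10121 CPM before induction, 23578 and 23820 CPM at 18 hpi and 886 and 1001 CPM at 120 hpi. Genes that all leukocytes use went the other way. A set of 20 of them, among them Ptprc (the CD45 phosphatase), Coro1a (an actin binding coronin), Rac2 and Lcp1, was chosen after other values had been seen. They summed to 4163 and 4182 CPM before induction, 1628 and 1608 CPM at 18 hpi and 13726 and 13551 CPM at 120 hpi, with a median log2 fold change over the interval of 3.21 (range 1.15 to 5.02). In these bulk libraries, fewer cells of a type and less RNA per cell cannot be told apart. The part of fibroblast RNA in the changes below was not tested, and the number of members above the leukocyte median is given beside the lists in which most genes rose.

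Of 16988 genes tested, 4668 rose from 18 to 120 hpi (27.5%) and 5603 fell (33%), and 6717 were not called. Rises reached 4 log2 units or more in 508 genes and falls in 1743. At 18 hpi 271 of the rising genes were at the floor, meaning 3 counts or fewer in both libraries, and at 120 hpi 1702 of the falling genes were. The replicates of the 2 times did not overlap for 10257 of the 10271 called genes. Calling itself makes such separation likely, so this count is no separate evidence. The median log2 fold change of all genes tested was -0.09. The plot of list members shows where the named groups lie in this spread. The lists were chosen with earlier results of these data known, so their counts are no independent evidence of direction. Each list count below is to be read against the shares of all genes tested, 27.5% higher and 33% lower. The leukocyte median was exceeded by 852 of all 16988 genes tested (5.02%) and by 844 of the 4668 genes that rose. Counts of list members above that median are to be read against these numbers.

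**Figure D1:**
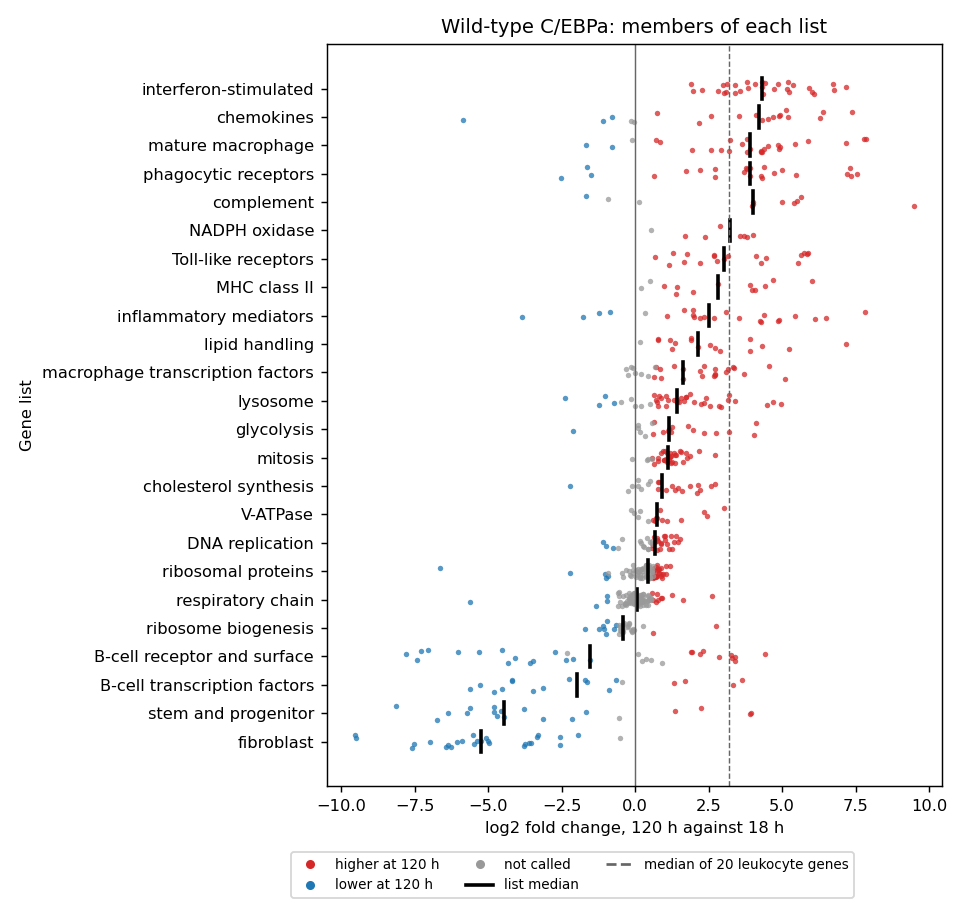
Log2 fold change from 18 to 120 hpi in wild-type cells (x axis) of each tested member of 24 gene lists (y axis); points are genes coloured by call and spread vertically at random, bars are list medians, and the dashed line is the median of 20 leukocyte genes at 3.21. The interferon-stimulated list has the highest median (4.31) and the fibroblast list the lowest (-5.24) of those drawn.

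Among the 12 largest rises were receptors and secreted factors of monocytes and macrophages. Clec10a, a galactose-binding C-type lectin (chr11:70156197-70170834 in mm10), read 0.195 and 0.237 CPM at 18 hpi and 329 and 333 CPM at 120 hpi (log2 fold change 10.52 ± 0.14 (SE), adjusted p = 3.45e-49). Its neighbour Mgl2, a lectin of the same kind (chr11:70130329-70137550), read 0.0651 and 0 CPM at 18 hpi and 57.9 and 56.1 CPM at 120 hpi. Both were all but absent at 18 hpi and plainly present in both libraries at 120 hpi. Slfn1, of the Schlafen family, had 0 counts in both libraries at 18 hpi and read 72.3 and 72.7 CPM at 120 hpi, at least 389-fold higher when the zero is set to 3 counts per library. Ccr2, the receptor that brings monocytes to sites of inflammation, read 8.53 and 10.2 CPM at 18 hpi and 2013 and 2158 CPM at 120 hpi (log2 fold change 7.79 ± 0.06 (SE), adjusted p = 1.48e-59). Cx3cr1, the fractalkine receptor of resident and patrolling cells, read 1.76 and 1.07 CPM at 18 hpi and 329 and 322 CPM at 120 hpi, and Fcgr1, the high-affinity IgG receptor, 1.89 and 2.31 CPM at 18 hpi and 408 and 392 CPM at 120 hpi. Il1b, encoding the fever cytokine IL-1β, read 2.47 and 2.37 CPM at 18 hpi and 552 and 545 CPM at 120 hpi (log2 fold change 7.82 ± 0.077 (SE), adjusted p = 3.87e-55). Groups did not overlap for any of these, but the ranking admitted only genes with non-overlapping groups. The other 5 were C4b, Aif1, Cyp4f37, Ifi213 and Ms4a4c, whose 120 hpi means lay between 28 and 307 CPM. Slfn1, Ifi213, Ms4a4c and the lectin pair belong to families with similar copies, so the split of reads among relatives is uncertain.

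Of 27 tested genes of a mature macrophage list, 24 rose and 2 fell, with a median of 3.90 (4.08 with genes at the floor set to their bound), and 19 of them lay above the leukocyte median. Csf1r, the receptor for CSF-1 that macrophages need to survive, read 151 and 146 CPM at 18 hpi and 2117 and 2084 CPM at 120 hpi (log2 fold change 3.82 ± 0.037 (SE), adjusted p = 1.12e-55). Adgre1, which encodes the F4/80 antigen, read 26.3 and 29.7 CPM at 18 hpi and 818 and 836 CPM at 120 hpi, and the LPS co-receptor Cd14 22.2 and 23.3 CPM at 18 hpi and 1334 and 1337 CPM at 120 hpi. Lyz2, the lysozyme of myeloid cells, was already at 523 and 525 CPM at 18 hpi and reached 11180 and 10965 CPM, with reads shared with its close relative Lyz1 uncertain. All of these separated the 2 times without overlap, which calling makes likely. The fallers were Spp1, encoding osteopontin (1037 to 596 CPM by the group means), and Ly6a, the Sca-1 antigen (140.4 to 44.2 CPM), both of which fibroblasts also express. Chil3, a chitinase-like secreted protein, stayed below 1 CPM in each library and was not called. All 20 macrophage genes that the study picked rose, and 17 exceeded the leukocyte median. The study chose them with these samples in hand, so neither count is independent evidence of direction.

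**Figure D2:**
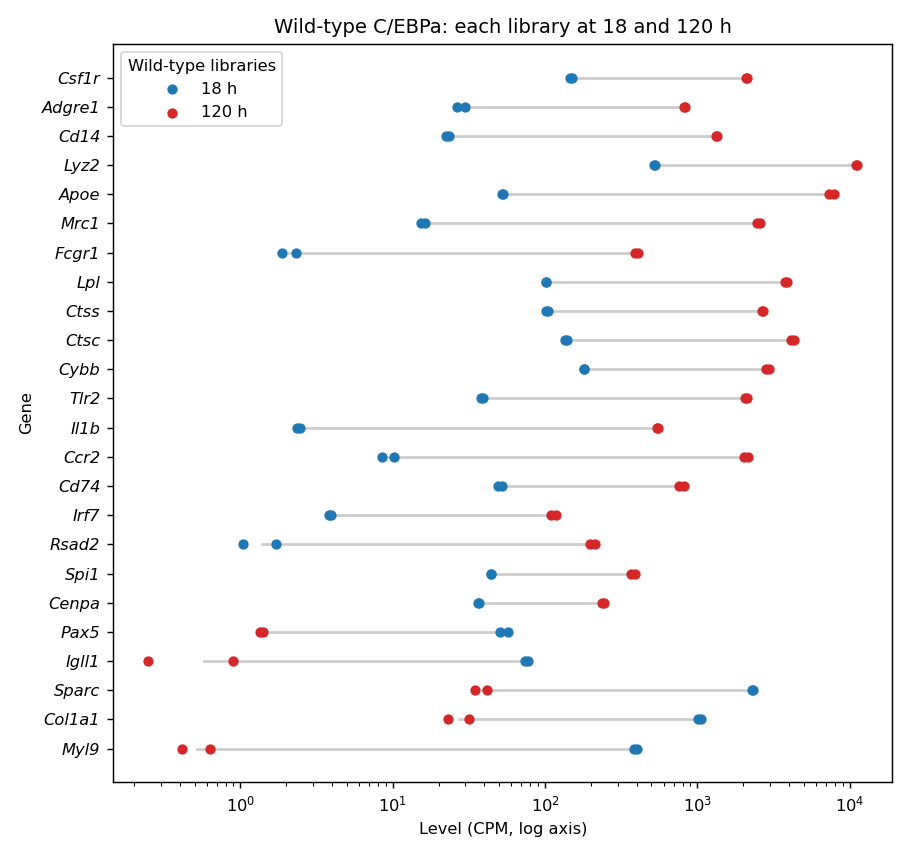
Level of 24 genes in each wild-type library at 18 and 120 hpi (x axis, CPM on a log scale; y axis, gene); points are libraries, and grey lines join the means of the 2 times. The libraries of the 2 times do not overlap for any gene drawn, with 19 genes higher at 120 hpi and 5 lower. All genes drawn were called, which makes such separation likely, so it is no separate evidence.

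Receptors for uptake rose in 20 of 23 tested members and fell in 3, with a median of 3.90 and 15 members above the leukocyte median. Mrc1, the mannose receptor, read 15.2 and 16.3 CPM at 18 hpi and 2474 and 2566 CPM at 120 hpi (log2 fold change 7.32 ± 0.06 (SE), adjusted p = 1.62e-58). The scavenger receptor Msr1 read 38.9 and 38.8 CPM at 18 hpi and 794 and 830.2 CPM at 120 hpi, and the β-glucan receptor Clec7a 26.4 and 30.1 CPM at 18 hpi and 541 and 588 CPM at 120 hpi. Integrins moved as well, with Itgam (the CD11b chain) going from 31 to 463 CPM and Itgax (CD11c) from 13.4 to 175 CPM. Mertk, which takes up dying cells, rose less, from 18.9 to 124 CPM (log2 fold change 2.72 ± 0.068 (SE), adjusted p = 2.88e-37). The scavenger receptor Marco rose but stayed low, from 2.84 to 13.1 CPM. The largest fall of the list, Vsig4, was below 1 CPM at both times and was not called without replicate 2 of 18 hpi or of 120 hpi (edgeR's adjusted p = 0.0617 and 0.0543).

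Complement genes rose in 8 of 11, and 8 exceeded the leukocyte median. The 3 chains of C1q, which starts the classical pathway, read 6.38 and 5.92 CPM at 18 hpi and 100.1 and 100.4 CPM at 120 hpi for C1qa, 13.6 and 13.1 CPM at 18 hpi and 644 and 568 CPM at 120 hpi for C1qb and 10.2 and 9.18 CPM at 18 hpi and 312 and 310.2 CPM at 120 hpi for C1qc. The chains thus rose together, each with non-overlapping libraries, which calling makes likely. C3, the central component, rose from 29.3 to 458 CPM, and Cd59a, which shields host cells from complement, fell from 6.12 to 1.89 CPM. The phagocyte NADPH oxidase list had 7 risers among 8 and 4 members above the leukocyte median. It was led by Cybb, its membrane catalytic chain, at 179.7 and 180.4 CPM at 18 hpi and 2841 and 2952 CPM at 120 hpi (log2 fold change 4.01 ± 0.039 (SE), adjusted p = 2.14e-55). Its cytosolic partner Ncf1 rose by 3.71 log2 units.

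Lysosomal genes rose in 31 of 40 and fell in 4, but by a smaller median of 1.42, and 4 lay above the leukocyte median. The list as a whole held 14039 and 14246 CPM at 18 hpi and 58425 and 60215 CPM at 120 hpi. Ctsc, the protease that activates granule serine proteases, showed the largest rise, at 135 and 138 CPM at 18 hpi and 4142 and 4307 CPM at 120 hpi (log2 fold change 4.95 ± 0.038 (SE), adjusted p = 7.54e-60). Ctss, the cathepsin that trims the MHC class II invariant chain, read 102 and 105 CPM at 18 hpi and 2657 and 2686 CPM at 120 hpi, and Lgmn, the asparaginyl endopeptidase legumain, 158 and 148 CPM at 18 hpi and 1647 and 1597 CPM at 120 hpi. Ctsb was abundant at both times and rose from 1676 to 8963 CPM, as did Ctsd from 1592 to 3260.4 CPM. Ctsk, the collagen-degrading cathepsin of osteoclasts and fibroblasts, fell from 48.5 to 9.19 CPM, and Ctsl was not called (817 to 588 CPM). Of the proton pump that acidifies lysosomes, the V-ATPase, 11 of 16 subunit genes rose and 0 fell, with a median of 0.73 and no member above the leukocyte median. The a1 subunit Atp6v0a1 rose most, from 144 to 1171 CPM (log2 fold change 3.02 ± 0.039 (SE), adjusted p = 2.19e-50).

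The palindrome CACGTG, the E-box that TFEB and its relatives bind, stood in the promoter window of 9 of the 32 lysosomal genes with a window (28.1%), against 11.2% of 11753 tested genes. A window runs from 250 bases before to 50 bases after a RefSeq start site (GRCm38.p6), both strands are searched, and a match is a description of letters and not evidence of a bound factor. The promoter of Ctsd is shown because it holds a pair of matches (chr7:142387778-142388077, minus strand), in capitals, starting 245 and 98 bases before the start site.
Ctsd: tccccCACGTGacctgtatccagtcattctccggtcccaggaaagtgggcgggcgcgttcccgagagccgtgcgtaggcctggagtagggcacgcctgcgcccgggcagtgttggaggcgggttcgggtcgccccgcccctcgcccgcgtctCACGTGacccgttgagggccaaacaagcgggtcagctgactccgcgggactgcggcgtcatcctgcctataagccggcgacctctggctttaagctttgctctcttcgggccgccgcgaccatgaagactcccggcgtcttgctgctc

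Lipid genes rose in 16 of 17 with 0 falling, by a median of 2.14, and 5 exceeded the leukocyte median. Apoe, the lipoprotein that macrophages secrete with cholesterol, rose most of the list, at 53.1 and 52.5 CPM at 18 hpi and 7911 and 7303 CPM at 120 hpi (log2 fold change 7.17 ± 0.052 (SE), adjusted p = 1.14e-60). Lpl, which frees fatty acids from triglyceride, read 101 and 102 CPM at 18 hpi and 3738 and 3904 CPM at 120 hpi. The cholesterol exporters rose unequally, Abcg1 from 26.8 to 199 CPM and Abca1 from 242 to 419.6 CPM, and the lipid droplet coat Plin2 went from 243 to 1068 CPM. In the cholesterol synthesis and uptake list 14 of 22 rose and 1 fell, with a median of 0.92 and none above the leukocyte median. The sterol sensor partner Insig1 rose from 36.1 to 216 CPM, while the enzymes Hmgcs1 (log2 fold change 0.52) and Sqle (-0.24) were not called. Hmgcs1 was called higher with the wild-type libraries alone (0.65). Of 15 iron genes 9 rose and 4 fell (2 without replicate 1 of 120 hpi). In the iron list 1 member exceeded the leukocyte median. Slc11a1, the phagosomal metal transporter, rose from 21.1 to 402 CPM and the ferritin chain Fth1 from 1715 to 4419.8 CPM. The iron exporter Slc40a1 rose from 18.9 to 54.9 CPM. Hmox1, which breaks down heme, read 2189.9 and 2181 CPM at 18 hpi and 687 and 661 CPM at 120 hpi and fell (log2 fold change -1.70 ± 0.029 (SE), adjusted p = 1.64e-44).

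Genes for sensing microbes rose in 19 of 19 tested members, against 27.5% of all genes tested. Their median was 3.01, and 8 lay above the leukocyte median. Tlr2, the receptor for bacterial lipopeptides, read 39.4 and 37.9 CPM at 18 hpi and 2065 and 2103 CPM at 120 hpi (log2 fold change 5.75 ± 0.044 (SE), adjusted p = 1.19e-59). Tlr7 and Tlr13, endosomal sensors of RNA, rose from 13.8 to 299.9 CPM and from 37.6 to 733 CPM. The LPS receptor Tlr4 rose from 13.5 to 87.3 CPM and its partner Ly96 from 7.28 to 16.2 CPM, both less than Cd14. Inflammatory mediators rose in 19 of 24 and fell in 4, with 10 above the leukocyte median. Osm, an IL-6 family cytokine, read 7.68 and 6.63 CPM at 18 hpi and 650.0 and 631 CPM at 120 hpi, and Tnf 15.2 and 15.5 CPM at 18 hpi and 295 and 289 CPM at 120 hpi. Il1rn, the natural antagonist of IL-1, rose beside Il1b, from 43.3 to 839 CPM. Arg1, which consumes arginine in alternatively activated macrophages, rose from 0.9 to 39.6 CPM, and the growth factor Igf1 from 14.2 to 416 CPM. The fallers included Csf1, the ligand of Csf1r (598 to 256 CPM), Ptgs2, the prostaglandin synthase (1314 to 732 CPM), and Pdgfa (62.6 to 4.36 CPM), genes that fibroblasts also express.

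Chemokines rose in 15 of 20 with a median of 4.23 (3.97 with bounds), 3 fell, and 12 exceeded the leukocyte median. Ccl2, a ligand of Ccr2, read 66.4 and 67.3 CPM at 18 hpi and 1378 and 1316 CPM at 120 hpi. Ccl3 and Ccl4, macrophage inflammatory proteins, went from 18.6 to 568 CPM and from 2.29 to 194 CPM, and Ccl12 from 0.802 to 135 CPM (log2 fold change 7.37 ± 0.13 (SE), adjusted p = 8.18e-44). Cxcl2, which draws neutrophils, rose from 24.4 to 895 CPM. Cxcl14, a stromal chemokine, fell from 167 to 2.87 CPM. Receptors rose in 9 of 12, 6 of them above the leukocyte median, so that Ccl2 and its receptor Ccr2 were higher together. Ccr1, a receptor of Ccl3, read 27.2 and 27.6 CPM at 18 hpi and 654 and 683 CPM at 120 hpi (log2 fold change 4.61 ± 0.048 (SE), adjusted p = 3.5e-54). The scavenging receptor Ackr3 fell from 35.8 to 0.176 CPM. Antigen presentation by MHC class II rose in 11 of 13 genes with 0 falling, and 6 exceeded the leukocyte median. The invariant chain Cd74 read 51.8 and 48.7 CPM at 18 hpi and 817 and 753 CPM at 120 hpi. The presenting chain H2-Aa rose only by 0.98, from 11.5 to 22.6 CPM, below its level of 63.6 CPM before induction. Ciita, the master regulator of the class, stayed at 1.27 and 1.81 CPM and was not called.

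Genes stimulated by interferon formed the list with the highest median of the 24 drawn. All 30 rose, by 1.91 to 7.19 with a median of 4.31, against 27.5% of all genes tested, and 22 exceeded the leukocyte median. The summed level was 269 and 271 CPM before induction, 205 and 205 CPM at 6 hpi, 189 and 191 CPM at 18 hpi and 2668 and 2732 CPM at 120 hpi. It was thus lowest at 18 hpi of these times, and the rise fell wholly within the late interval. Rsad2, the antiviral enzyme viperin, rose most, at 1.04 and 1.72 CPM at 18 hpi and 199 and 211 CPM at 120 hpi (log2 fold change 7.19 ± 0.11 (SE), adjusted p = 3.26e-47). Irf7, the transcription factor that amplifies interferon production, read 3.84 and 3.91 CPM at 18 hpi and 117 and 109 CPM at 120 hpi. Ifit1 and Ifit3, which bind foreign RNA, went from 2.31 to 33.5 CPM and from 1.65 to 35.7 CPM, and the ubiquitin-like Isg15 from 3.79 to 53.5 CPM. Many members, such as the Ifit, Oas and Mx genes, have close relatives, so the value of a single gene is less certain than that of the list.

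A pair of GAAA repeats set 2 bases apart, the core of the interferon-stimulated response element, was present in the promoter window of 15 of the 22 members with a window (68.2%), against 3.88% of all 11753 tested genes with a window. Promoters of Rsad2 (chr12:26456403-26456702, minus strand) and Ifit1 (chr19:34640639-34640938, plus strand) are shown, as the member that rose most and a member with a pair of matches. Capitals mark the match, which in both genes lies on the opposite strand and so reads as a pair of TTTC repeats. It starts 120 bases before the start site of Rsad2, and 104 and 85 bases before that of Ifit1.
Rsad2: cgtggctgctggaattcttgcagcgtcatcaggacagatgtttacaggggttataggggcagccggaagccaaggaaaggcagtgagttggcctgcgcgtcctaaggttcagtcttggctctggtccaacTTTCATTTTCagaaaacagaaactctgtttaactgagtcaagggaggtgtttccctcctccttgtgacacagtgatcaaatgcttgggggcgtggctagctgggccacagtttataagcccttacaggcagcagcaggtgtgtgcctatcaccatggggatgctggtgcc
Ifit1: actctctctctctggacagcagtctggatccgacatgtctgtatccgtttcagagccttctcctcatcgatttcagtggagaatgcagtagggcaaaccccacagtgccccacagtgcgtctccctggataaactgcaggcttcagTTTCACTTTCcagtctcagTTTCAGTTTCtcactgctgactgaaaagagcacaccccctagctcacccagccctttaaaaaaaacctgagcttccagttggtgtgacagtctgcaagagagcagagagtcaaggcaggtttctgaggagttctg
Such genes are defined by their response to interferon, so the share is no independent finding about these cells. Whether interferon was present in these cultures was not tested.

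Transcription factors of macrophages rose in 21 of 29 with 0 falling, by a median of 1.62, and 5 exceeded the leukocyte median. Spi1 (PU.1) had stood at 33.8 CPM before induction and 66.3 CPM at 6 hpi, and read 44 and 44.5 CPM at 18 hpi and 389 and 366 CPM at 120 hpi (log2 fold change 3.09 ± 0.048 (SE), adjusted p = 8.11e-47). Maf, which helps to hold macrophages in their mature state, rose from 17.6 to 227 CPM. Irf8, which both B cells and monocytes use, dropped from 169 CPM before induction to 46.8 CPM at 18 hpi and stood at 214 CPM at 120 hpi. Among the C/EBP family, reads on Cebpa rose from 39.6 to 97.9 CPM, on Cebpb from 57.8 to 178 CPM and on Cebpd from 21.5 to 33.3 CPM, a call that was lost with upper-quartile scaling (log2 fold change 0.53) and without the filter on low counts (0.57). Reads from the retroviral C/EBPα and from the cell's own gene cannot be told apart in this count. Pparg, a lipid sensor, rose from 7.65 to 23.5 CPM, Egr2 from 28.9 to 190.1 CPM and Zeb2 from 158 to 764 CPM. Klf4 was not called (327 to 297 CPM), and the red pulp factor Spic stayed below 2 CPM.

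The 12 largest falls were those of Igfbp3 (an IGF binding protein), Tll1 (a secreted metalloprotease), Ror2 (a WNT5A receptor), Cthrc1, Unc5c (a netrin receptor), Rgs5, Tmeff2, Lhx9, Btbd11, Limch1, Crabp1 and Rian, an imprinted noncoding RNA. Apart from Rian, each had 0 counts in both libraries at 120 hpi. The ranking, here and for the rises, used fitted log2 fold changes. These run to extremes where a group has 0 counts, so the ranking favours such genes. Fscn1, ranked outside the 12, fell 804-fold, beyond the lower bounds of Igfbp3 and Crabp1 given next. Igfbp3 read 92.4 and 94.9 CPM at 18 hpi, at least 362-fold above the floor of 120 hpi, and Crabp1, the lowest of them, 24.8 and 23.4 CPM, at least 93.3-fold. Rian read 401 and 417 CPM at 18 hpi and 0 and 0.269 CPM at 120 hpi. All 12 were already present before induction, at 13 to 226 CPM, and all 12 were higher at 18 hpi than then. Fibroblast genes fell in 26 of 27 with 0 rising and a median of -5.24 (-5.07 with bounds). Sparc, a matrix protein, read 2308 and 2279.9 CPM at 18 hpi and 41.7 and 34.9 CPM at 120 hpi (log2 fold change -5.90 ± 0.044 (SE), adjusted p = 2.79e-60). Type I collagen Col1a1 read 1064 and 1017 CPM at 18 hpi and 31.8 and 22.9 CPM at 120 hpi, and Myl9, a light chain of smooth muscle myosin, 401 and 384 CPM at 18 hpi and 0.414 and 0.627 CPM at 120 hpi. Changes in feeder number and in gene expression cannot be told apart here for genes that fibroblasts express.

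B cell genes, most of which had fallen before 18 hpi, fell further in part. Of 18 B cell transcription factors 13 fell and 4 rose. Pax5, which holds cells to the B lineage, stood at 879 CPM before induction and read 50.9 and 57.4 CPM at 18 hpi and 1.41 and 1.34 CPM at 120 hpi (log2 fold change -5.29 ± 0.12 (SE), adjusted p = 5.94e-40). Ebf1, its upstream partner, read 49.8 and 50.9 CPM at 18 hpi and 2.32 and 3.23 CPM at 120 hpi, and Myb 30 and 30.7 CPM at 18 hpi and 3.15 and 3.85 CPM at 120 hpi. Before induction Ebf1 and Myb had stood at 425 and 321 CPM, so all 3 were already far below their starting level at 18 hpi and lower again at 120 hpi. The risers were Ikzf1, Irf4, Pou2f2 and Id2, of which Ikzf1 rose from 63.8 to 205 CPM and Id2, an inhibitor of E proteins, from 216 to 545 CPM. Of 31 genes of the B cell receptor and surface 15 fell and 10 rose, against 33% and 27.5% of all genes tested. Their median was -1.54, and 0.09 with bounds. Igll1, a surrogate light chain, read 76.8 and 74 CPM at 18 hpi and 0.249 and 0.896 CPM at 120 hpi (log2 fold change -7.05 ± 0.13 (SE), adjusted p = 1.72e-43). Rag1, the recombinase, was at the floor at 120 hpi. Cd79a, a signalling chain of the receptor, was not called, at 32.2 and 32 CPM at 18 hpi and 41.7 and 42.1 CPM at 120 hpi, against 319 CPM before induction. Ighm fell from 307 to 106 CPM. The risers of this list were Syk, Lyn, Btk, Cd53, Cd37, Cd72, Bst1, Il7r, Cd38 and Cd2, several of which myeloid cells also use, and with them the summed level of the list went up from 1320.0 and 1328 to 3172 and 3263 CPM. Il7r, the receptor for IL-7, rose from 28.4 to 107 CPM. Of 20 B cell genes that the study picked with these samples in hand, 16 fell and 2 rose.

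**Figure D3:**
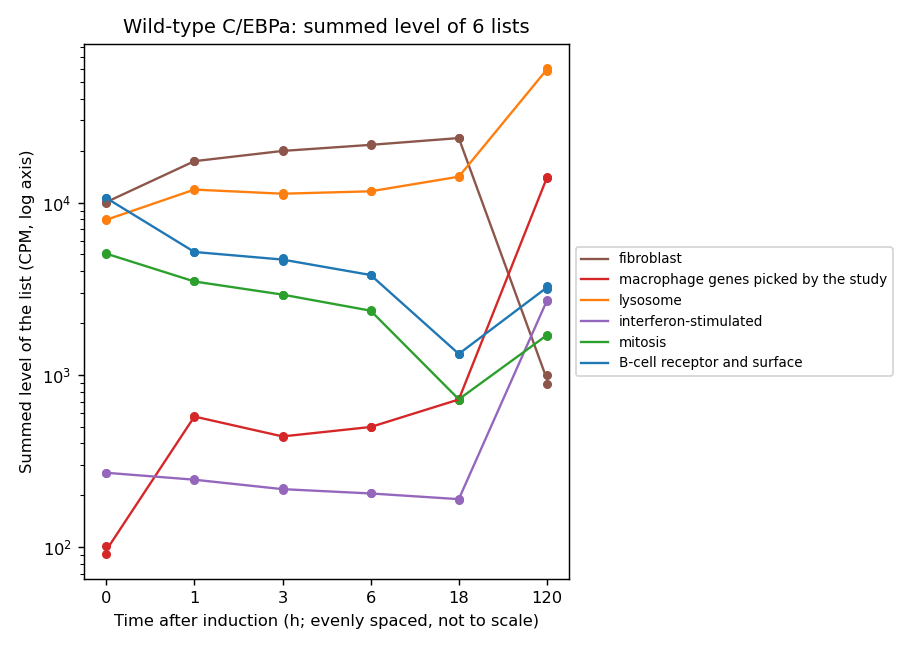
Summed level of 6 gene lists (y axis, CPM on a log scale) in the wild-type libraries against time after induction (x axis, hours, evenly spaced and not to scale); points are the 2 libraries of each time and lines join their means. The fibroblast list is highest at 18 hpi and lowest at 120 hpi, while the interferon-stimulated list is lowest at 18 hpi.

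Cell cycle genes had fallen up to 18 hpi and were higher again at 120 hpi. The 36 mitotic genes summed to 5035 and 5074 CPM before induction, 718 and 726 CPM at 18 hpi and 1689 and 1713 CPM at 120 hpi. Over the late interval 32 rose and 0 fell, with a median of 1.13. None of the 36 reached the leukocyte median, though Cenpa and Top2a rose more than the lowest leukocyte gene (1.15). Top2a, the topoisomerase of dividing cells, read 79.9 and 79.4 CPM at 18 hpi and 197 and 215 CPM at 120 hpi (log2 fold change 1.37 ± 0.044 (SE), adjusted p = 2.54e-32), and Mki67, the Ki-67 antigen, 131 and 126 CPM at 18 hpi and 211 and 226 CPM at 120 hpi. Cenpa, the centromeric histone, rose most, at 36.7 and 36.2 CPM at 18 hpi and 236 and 244 CPM at 120 hpi (log2 fold change 2.72 ± 0.043 (SE), adjusted p = 4.27e-46). DNA replication genes rose in 22 of 37 and fell in 3, again with none above the leukocyte median. Mcm3, a part of the replicative helicase, rose from 34.4 to 101 CPM, and Rrm2, which makes deoxynucleotides, fell from 105 to 48.6 CPM. Regulators of G1 were split, 10 higher and 8 lower of 27, against 27.5% and 33% of all genes tested. Cdkn1a, the p21 inhibitor, read 2312 and 2304 CPM at 18 hpi and 916 and 864 CPM at 120 hpi. Ccnd2 fell from 615 to 118 CPM. The part of fibroblast RNA in these falls was not tested. Myc rose from 51.2 to 130.3 CPM.

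Elements typical of mitotic promoters were common in the windows of this list. TTTGAA, the cell cycle homology region, stood in 23 of 30 windows (76.7%) against 14.9% of all genes with a window, and CCAAT in 23 (76.7%) against 42.3%. Both were present in 20 of the 30 (66.7%), against 7.23% of all. The promoter of Cenpa (chr5:30666636-30666935, plus strand) is shown as that of the mitotic gene that rose most, with both kinds of match in capitals (CCAAT on the opposite strand as ATTGG, 109 and 86 bases before the start site, and TTTGAA after it).
Cenpa: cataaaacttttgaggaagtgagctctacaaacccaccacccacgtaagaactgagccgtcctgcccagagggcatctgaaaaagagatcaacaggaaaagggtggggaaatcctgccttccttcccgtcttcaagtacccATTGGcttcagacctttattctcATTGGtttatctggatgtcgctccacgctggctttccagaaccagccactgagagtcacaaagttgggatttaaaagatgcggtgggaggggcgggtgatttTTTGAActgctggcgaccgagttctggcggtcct

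Metabolic and ribosomal genes were counted in the same way. Glycolysis genes rose in 14 of 20, 2 of them above the leukocyte median, with Hk3, a hexokinase of myeloid cells, going from 21.4 to 370.3 CPM. The only faller, Gapdh, read 30.2 and 28.2 CPM at 18 hpi and 7.46 and 6 CPM at 120 hpi, a level that is uncertain because many processed copies share its sequence. Of 80 ribosomal protein genes 26 rose and 5 fell, a count of risers that went down to 16 with upper-quartile scaling and up to 40 and 43 without replicate 2 of 18 hpi and of 120 hpi. Ribosome biogenesis genes rose in 2 and fell in 8 of 30 (13 fell with upper-quartile scaling), against 27.5% and 33% of all genes tested. Among the fallers was Ncl, encoding nucleolin, from 988 to 598 CPM. Respiratory chain genes were mostly not called, 10 higher and 4 lower of 80. Their risers numbered 16 without replicate 1 of 18 hpi and 17 without replicate 2 of 120 hpi, and their fallers 7 without replicate 1 of 120 hpi or without the filter and 8 with upper-quartile scaling. Of 24 adhesion and cytoskeleton genes 10 rose and 10 fell. Lgals3, a secreted galectin of macrophages, rose from 357 to 2209 CPM, and Fscn1, the actin bundler fascin, fell from 214 to 0.255 CPM.

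The late step was set against that of R35A, in which arginine 35 of C/EBPα is replaced by alanine. R35A cells had 53.9% of genes called over the same interval and wild-type cells 60.5%. Of the 4668 genes that rose in wild-type cells 3581 also rose in R35A cells (76.7% of the wild-type and 85.9% of the R35A risers), and of the 5603 that fell 4367 also fell (77.9% and 87.4%). The size of the change differed between the constructs for 3791 genes (22.3%) by the interaction test, 1796 with a more positive change in wild-type cells (10.6%) and 1995 with a more negative one (11.7%). Among the wild-type risers 1438 rose more in wild-type cells and 119 less. Among the fallers 1631 fell more and 102 less. The reference sets differed as well. The fibroblast list held 17658 and 17658 CPM at 18 hpi and 2577 and 2768 CPM at 120 hpi in R35A cells, a smaller drop than in wild-type cells, and 23 of its 27 genes had a more negative change in wild-type cells. The 20 leukocyte genes rose by a median of 2.04 in R35A cells, and 19 of them rose more in wild-type cells, by a median difference of 1.28. The part of this in the differences below was not tested.

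Mature macrophage genes had a more positive change in wild-type cells in 23 of 27, and 17 of them by more than the leukocyte difference. Csf1r went from 627 to 1754 CPM in R35A cells (difference 2.34 ± 0.047 (SE), adjusted p = 2.16e-39), starting higher and ending lower than in wild-type cells. Cd14 followed the same course, from 111 to 950.1 CPM (difference 2.78 ± 0.064 (SE), adjusted p = 5.42e-37). Ccr2 took the same course, going from 26.2 to 712 CPM (difference 3.02 ± 0.09 (SE), adjusted p = 2.11e-32). So did Il1b, from 20.6 to 290.4 CPM (difference 4.0 ± 0.13 (SE), adjusted p = 6.95e-31), Tnf, from 87.9 to 194 CPM (difference 3.11 ± 0.074 (SE), adjusted p = 1.74e-36), and Csf3r, the G-CSF receptor, from 13.1 to 102 CPM (difference 4.08 ± 0.18 (SE), adjusted p = 9.44e-26). Other members ended higher in R35A cells. Lyz2 went from 2303 to 20627 CPM there and Apoe from 612 to 15064 CPM, both above wild-type cells at 18 and at 120 hpi. The summed level of the mature macrophage list was 12039 and 12075 CPM at 18 hpi and 59265 and 61423 CPM at 120 hpi in R35A cells, against 3713 and 3715 CPM and 41976 and 42591 CPM in wild-type cells, and was thus higher in R35A cells at both times.

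Acod1 took another direction in R35A cells, and 4 other named genes lacked the wild-type rise there. In wild-type cells Acod1, which makes the antimicrobial metabolite itaconate, rose, reading 6.06 and 6.1 CPM at 18 hpi and 23.5 and 25 CPM at 120 hpi. With R35A it fell from 80.2 and 79.8 CPM to 20.4 and 20.8 CPM (difference 3.95 ± 0.13 (SE), adjusted p = 4.97e-31). Il7r, Id2, Bcl2l11 (the death-promoting BIM) and Myc rose in wild-type cells by 1.92, 1.33, 1.39 and 1.35. In R35A cells their log2 changes were -0.45, -0.07, -0.36 and -0.08, none of which passed the 1.5-fold threshold. All 4 differences passed the test, at 2.37, 1.41, 1.75 and 1.43. Changes less positive in wild-type than in R35A cells included Marco (difference -2.29 ± 0.22 (SE), adjusted p = 5.16e-13), Ccl12 (difference -1.42 ± 0.42 (SE), adjusted p = 0.00509), Abca1 (difference -1.04 ± 0.051 (SE), adjusted p = 2.1e-23), Ctsl (difference -1.0 ± 0.045 (SE), adjusted p = 7.85e-25) and Ccnd1, a cyclin of G1 (difference -1.21 ± 0.049 (SE), adjusted p = 4.73e-27).

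The interferon-stimulated list differed between constructs in both directions. Its median change was 4.31 in wild-type and 4.60 in R35A cells, where the summed level went from 282 and 276 to 4321 and 4418 CPM, and the interaction was called more positive for 8 and more negative for 5 of 30 genes. Rsad2 changed more in wild-type cells (difference 1.85 ± 0.22 (SE), adjusted p = 5.9e-10) and Isg15 less (difference -0.81 ± 0.19 (SE), adjusted p = 0.000512). Mitotic genes changed by a median of 1.41 in R35A cells, above the 1.13 of wild-type cells, and the difference was called for 3 of 36. The R35K libraries were counted in a table of their own and fitted alone, so their values are given beside the others with no test between them. There 53.3% of genes were called, and the median changes were 1.53 for mature macrophage genes, 2.16 for interferon-stimulated genes, 0.87 for mitotic genes and -3.18 for fibroblast genes.

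**Figure D4:**
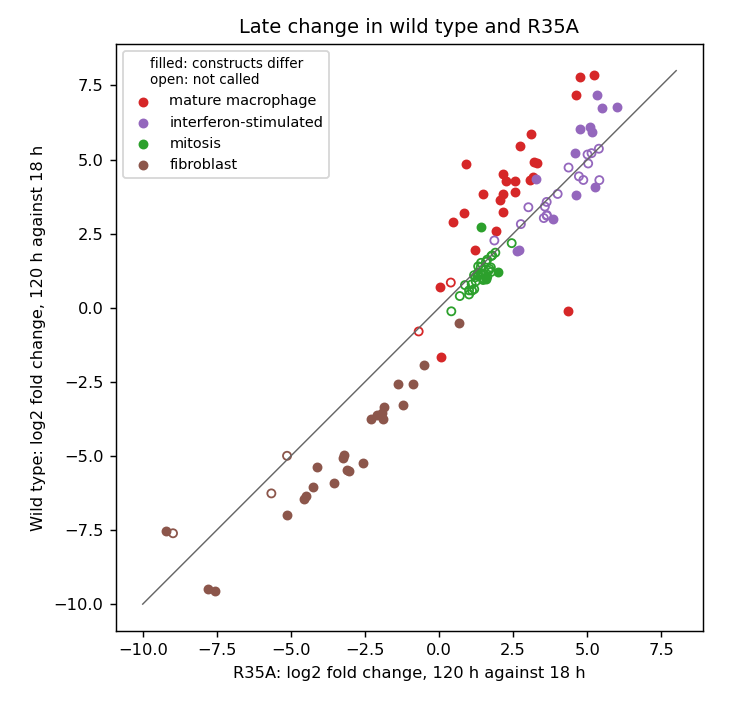
Log2 fold change from 18 to 120 hpi in R35A cells (x axis) and in wild-type cells (y axis) for the tested members of 4 lists; filled points differ between constructs by the interaction test, open points were not called, and the line marks equal change. Mature macrophage genes lie mostly above the line, fibroblast and mitotic genes mostly below it (median difference of the mitotic genes -0.31), and interferon-stimulated genes on both sides.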

How the data were processed

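RNA-seq was analysed from the count tables that the authors deposited. They hold raw read counts per gene, not normalized, for 40354 genes in 24 wild-type and R35A libraries and, in a table of their own, 12 R35K libraries. According to the study's methods the authors sequenced stranded polyA libraries as single 50-base reads, ran FastQC, and used STAR 2.5.0a both for alignment (mm10) and for counting uniquely mapped reads per gene. The strand column and the annotation release are not given in the sources used here. Reads from a gene and an antisense partner may therefore not be separated. Normalized log2 tables were not used here.

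The 24 libraries were fitted together over 12 groups with edgeR 4.0.16 (R 4.3.3): filterByExpr (16988 genes kept), TMM scaling, quasi-likelihood F tests and Benjamini-Hochberg adjustment. R35K was fitted alone (16434 genes). SEs were derived from the F statistic. They include the spread between replicate libraries as estimated in the fit, while floors cover counting error only. Coordinates of genes came from GENCODE vM21, which holds 39171 of the table's gene symbols (97.1%), and promoters from RefSeq (GRCm38.p6). Scripts were tested on simulated counts. Some genes of the lists are not reported here by name.

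Members and gene lists were chosen with earlier results of these data known. Genes named were the 12 largest rises and 12 largest falls among called genes with non-overlapping replicates and at least 20 CPM in the higher group, preset genes of each list, and each list's largest called rise and fall; 20 leukocyte genes, the other risers of the 2 B cell lists and genes compared between constructs were picked after values were seen. Alternatives were other scalings, no filter, a DESeq2 1.42.0 Wald test, fewer libraries, a replicate block and leaving out each library. Replicates differed beyond counting noise (chi-square per degree of freedom 1.39 at 18 hpi and 2.62 at 120 hpi).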

Additional observations from a re-analysis of the deposited data

Results flagged for a closer look

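The change from 18 to 120 hpi differed between wild-type and R35A cells for 3791 genes by the interaction test. Among the genes named, the difference (wild type minus R35A, log2) was positive for Csf3r (4.08), Il1b (4.0), Acod1 (3.95), Tnf (3.11), Ccr2 (3.02), Cd14 (2.78), Il7r (2.37), Csf1r (2.34), Rsad2 (1.85), Bcl2l11 (1.75), Myc (1.43) and Id2 (1.41). It was negative for Marco (-2.29), Ccl12 (-1.42), Ccnd1 (-1.21), Abca1 (-1.04), Ctsl (-1.0) and Isg15 (-0.81). Each group had 2 libraries, too few to look for a single library that stands apart within a group.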

How the results depend on the processing

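The counts of 4668 risers and 5603 fallers stayed within 1.5 times under every alternative run, at 4225 to 5191 and 4954 to 6331, and 0 genes called in both turned direction. Upper-quartile scaling shifted the median log2 fold change by -0.10, the fit of the 12 wild-type libraries alone by 0.13 and leaving out a library by 0.12 to 0.13. Leaving out each of the 4 wild-type libraries gave 5062 to 5191 risers and 5000 to 5117 fallers. The replicate numbers did not pair the samples (r = 0.052 between the replicate differences at 18 and 120 hpi, across 11555 genes), and a block on them gave 4658 and 5601 calls and left the call of 240 of 240 named genes the same (3748 genes differed between constructs). The 3791 differences between constructs ranged from 3374 (DESeq2 Wald test) to 3814. Of the named genes, only some that were not called changed sign: Slc2a1 at -0.0094 with upper-quartile scaling, Chil3 at 0.018 and S100a9 at 0.055 with the wild-type libraries alone, and, leaving out single libraries, Chil3 at -0.055 to 0.078, S100a9 at -0.0052 to 0.10 and Klf4 at -0.027 to 0.00086. The cause was not tested. Calls were lost when a library was left out by Mpo, Ctsg, Steap4, Vsig4 and Rps29, all near or below 1 CPM, where depth limits what can be said. Atp6v1a, Tfrc, Cebpd and Ccnb1, at higher levels but close to the 1.5-fold threshold, lost theirs with upper-quartile scaling (log2 0.50, 0.51, 0.53 and 0.52) and without the filter (0.55, 0.56, 0.57 and 0.57). Calls were also gained. Hmgcs1, Spic and Hk2 were called higher with the 12 wild-type libraries alone (log2 0.65, 0.81 and 0.71). Flt3, Npm1 and Nop56 were called lower with upper-quartile scaling (-0.64, -0.67 and -0.62). The 4-library fit tested 15136 genes.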

Other observations

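Of 18 granulocyte genes 8 rose and 2 fell (0 without replicate 2 of 120 hpi, and 1 without replicate 1 of 18 or of 120 hpi and with the wild-type libraries alone), but primary granule genes stayed low at both times, with Mpo, Elane and Ctsg below 1 CPM in each library and Prtn3 not called (14.6 to 10.8 CPM). Csf3r rose most of the list, at 0.977 and 1.36 CPM at 18 hpi and 158 and 152 CPM at 120 hpi. The list as a whole held 285 and 282 CPM at 18 hpi and 2683 and 2749 CPM at 120 hpi. In it, 3 members exceeded the leukocyte median. S100a8, a calcium-binding alarmin, rose from 1.28 to 7.34 CPM, below its 13.1 CPM before induction, and its partner S100a9 was not called. Of 12 dendritic cell genes 3 rose and 4 fell, shares close to the 27.5% and 33% of all genes tested, and Flt3 was not called. Of 13 osteoclast genes 8 rose and 4 fell, and 2 exceeded the leukocyte median. Tnfrsf11a, the RANK receptor, went from 10.5 to 103 CPM and the fusion gene Dcstamp from 1.1 to 10.1 CPM. Mast cell genes fell in 4 of 6, Gata2 from 18.7 to 0.345 CPM.

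Stem and progenitor genes fell in 14 of 19, Kit from 17 to 0.642 CPM, and several of these, such as Cd34 and Hmga2, are also genes of embryonic fibroblasts. Lmo2 rose instead, from 11.4 to 176 CPM. Of 18 genes of cell death 10 rose and 4 fell (2 without replicate 2 of 18 hpi and 1 without replicate 1 of 120 hpi). Of these 18 genes 3 exceeded the leukocyte median. Casp1, the inflammatory caspase that matures IL-1β, rose from 9.17 to 92.9 CPM and Bcl2 from 7.5 to 32.6 CPM. The p53 target Bbc3 fell from 65.9 to 19.2 CPM, and the part of fibroblast RNA in this fall was not tested.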
